A study of Homo sapiens with 10 samples.

Results

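The genes of cholesterol and fatty acid synthesis and their regulators were followed in HEK293T cells that overexpressed 1 of 2 related kinases, BRSK1 or BRSK2. The set has 36 genes, taken by name from a list of enzymes and regulators of the SREBP1 and SREBP2 pathways, out of 58676 genes in the deposited count tables. The rule uses names and no measured value, although earlier results of these data were known when the list was drawn up. All 36 passed the filter on low counts, which left 16936 genes for testing, and the lowest count of any member in any library was 126 (CYP51A1). HEK293T is a transformed human embryonic kidney line, here grown in DMEM with 10% serum. The 10 libraries were 3 of cells overexpressing BRSK1, 3 of cells overexpressing BRSK2, 2 of cells overexpressing hcRED, a red fluorescent protein, and 2 labelled Mock. Overexpression lasted 24 h, no time is given for Mock, and 3 µg of RNA per sample was sent for sequencing. BRSK1 and BRSK2 belong to the AMPK-related kinases, and the series was made to measure what each of them changes in RNA.

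Cholesterol is built from acetyl-CoA through mevalonate, the isoprenoid farnesyl diphosphate, squalene and lanosterol, and fatty acids are built from acetyl-CoA through malonyl-CoA. Both routes are switched on by the SREBP transcription factors, which are held in the endoplasmic reticulum by SCAP and the INSIG proteins while sterols are plentiful and are carried to the Golgi for cleavage when sterols run low. The freed SREBP fragment binds sterol regulatory elements in the promoters of these genes, often beside a CCAAT box bound by NF-Y, and SREBF2 and INSIG1 are themselves among its targets.

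Library depth ran from 16516116 to 24304302 counts. The overexpressed kinases matched the labels: BRSK2 reached 72750 to 108888 CPM (TMM-scaled counts-per-million) in the 3 BRSK2 libraries and 69.9 to 97.7 CPM in the other 7. BRSK1 reached 46186 to 70223 CPM in its own 3 libraries and 10.2 to 29.5 CPM elsewhere. All 5 markers fixed for the HEK293 line were above 1 CPM, and their sum was 209.6 to 286.5 CPM. Markers of hepatocytes summed to at most 0.712 CPM, of immune cells to at most 0.05 CPM and of endothelial cells to at most 0.197 CPM. The 3 adipocyte markers summed to at most 1.57 CPM, with ADIPOQ at 0. PLIN1 reached 1.57 CPM and was the 1 adipocyte marker with a mean of at least 1 CPM. Among 3 fibroblast markers COL1A1 reached 37.5 CPM while DCN and LUM stayed below 1 CPM. Whether replicates are separate cultures is not in the labels, and the p-values therefore cover only the spread among these libraries, which can be purely technical. In RNA from whole cultures, fewer cells with a transcript and less of it per cell cannot be told apart.

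Compared per gene length, as CPM per kilobase, the set covered a wide range of levels in the 4 control libraries. SCD, the desaturase that makes oleate, had the highest mean at 192 CPM per kilobase. ACLY, which makes cytosolic acetyl-CoA from citrate, followed at 154 CPM per kilobase, and FASN, the fatty acid synthase, at 134 CPM per kilobase. The sterol sensor INSIG1 was next at 67.6 CPM per kilobase, and DHCR7, the last enzyme of the Kandutsch-Russell route to cholesterol, was the highest of the sterol ring enzymes at 48.4 CPM per kilobase. The lowest members were ACACB, the mitochondrial-type acetyl-CoA carboxylase, at 1.51 CPM per kilobase, the lanosterol demethylase CYP51A1 at 2.02 CPM per kilobase and STARD4, a sterol carrier, at 3.25 CPM per kilobase. Across the 10 libraries a member's highest level was between 1.12 times (NSDHL) and 2.21 times (CYP51A1) its lowest.

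**Figure D1:**
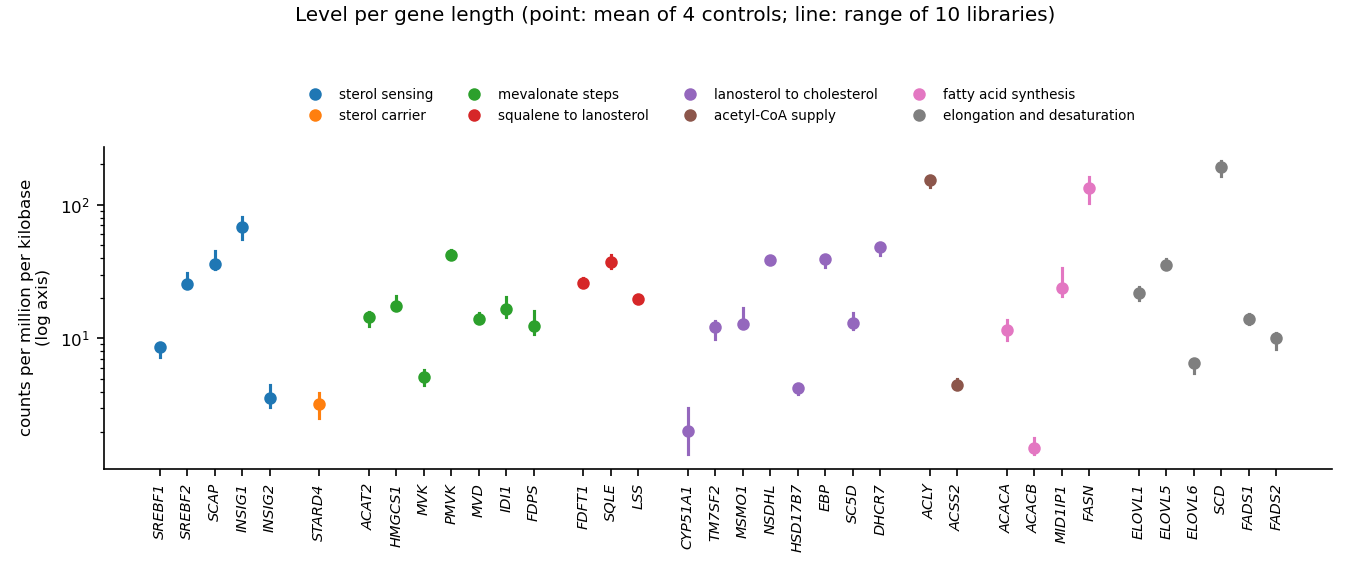
Level per gene length of the 36 members, in TMM-scaled CPM per kilobase on a log axis, ordered and coloured by role in the pathway; points are means of the 4 control libraries and lines span the lowest to the highest of the 10 libraries. SCD, ACLY and FASN lie highest, and the line of CYP51A1 is the longest.

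Of the 36 members, 5 passed the test in at least 1 comparison and 31 passed in none. The 5 are SREBF2, the gene of the SREBP2 transcription factor; IDI1, the isopentenyl diphosphate isomerase of the mevalonate route; MSMO1, the methylsterol oxidase that removes methyl groups after lanosterol; MID1IP1, which binds acetyl-CoA carboxylase and promotes its polymerization; and FASN. The stretches of 150 bases just before the deposited start are shown for 4 of these genes (all but FASN). Capitals mark the letters searched for on either strand, the sterol regulatory element TCACNCCAC and the CCAAT box. IDI1 and MSMO1 hold the CCAAT box alone. Among members that did not pass, the same stretch holds 4 CCAAT boxes for NSDHL and 3 for MVD, while those of SREBF1 and INSIG2 hold none. The letters therefore do not set the genes shown apart from the other members. The search used RefSeq windows on GRCh38.p14, in which 32 of the 36 members were found, from 250 bases before to 50 bases after each start. The SREBF2 stretch lies at chr22:41832929-41833078 on the plus strand, MID1IP1 at chrX:38801282-38801431 on the plus strand, IDI1 at chr10:1049171-1049320 on the minus strand and MSMO1 at chr4:165327473-165327622 on the plus strand.
SREBF2: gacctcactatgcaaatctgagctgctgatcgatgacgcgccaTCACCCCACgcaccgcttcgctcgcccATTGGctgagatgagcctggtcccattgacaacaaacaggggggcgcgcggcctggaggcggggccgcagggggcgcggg
MID1IP1: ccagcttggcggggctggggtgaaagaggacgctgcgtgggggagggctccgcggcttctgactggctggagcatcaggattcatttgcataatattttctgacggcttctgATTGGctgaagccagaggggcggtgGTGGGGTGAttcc
IDI1: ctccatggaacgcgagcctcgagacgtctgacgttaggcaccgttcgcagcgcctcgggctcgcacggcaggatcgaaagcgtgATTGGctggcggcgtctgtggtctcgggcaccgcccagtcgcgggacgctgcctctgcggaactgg
MSMO1: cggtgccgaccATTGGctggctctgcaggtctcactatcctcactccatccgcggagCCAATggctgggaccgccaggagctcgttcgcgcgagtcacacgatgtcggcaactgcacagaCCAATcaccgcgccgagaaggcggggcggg

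The element TCACNCCAC was in 396 of all 35116 RefSeq windows (1.13%) and in 2 of the 44 windows of members (4.55%), those of SREBF2 and MID1IP1. It begins 133 bases before the RefSeq start of SREBF2 and 40 bases before that of MID1IP1, and overlaps neither a CCAAT box nor a GC box in either window. The CCAAT box was in 34.6% of all windows and in 65.9% of the members' windows, and 25 of the 32 members had it, among them IDI1 with 1 and MSMO1 with 3 in the stretches shown. The GC box GGGCGG was in 45% of all windows and in 86.4% of the members' windows, in 30 of the 32 members. A match describes the letters in these windows and was not tested as a binding site.

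With BRSK2, 2 of the 36 members rose and 0 fell against the controls: MID1IP1 by 34.0% and SREBF2 by 15.7%. Called genes, those with an adjusted p under 0.05 in edgeR's quasi-likelihood test, made up 7.82% of all 16936 tested genes (4.77% higher, 3.05% lower), and the members' share of 5.56% lies near that background. At an unadjusted p under 0.05 there were 4 members (11.1%), against 23% of all genes. DESeq2 called 3 members, all higher, with SCAP as the additional one. The median log2 fold change was -0.0015 over the members and 0.0023 over all tested genes. Without its sign, the median difference was 0.0838 on the log2 scale for the members and 0.148 for all genes. For 34 of the 36 members the 95% interval of the difference lay within 0.5 on the log2 scale in either direction, the exceptions being CYP51A1 and MID1IP1.

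With BRSK1, 3 members rose (MSMO1 by 27.7%, MID1IP1 by 27.0% and IDI1 by 19.7%) and 1 fell (FASN, by 15.4%). That is 11.1% of the members, against 6.43% of all tested genes (3.77% higher, 2.66% lower). At an unadjusted p under 0.05 there were 11 members, or 30.6%, against 21.8% of all genes. The median log2 fold change was -0.0104 over the members and 0.0026 over all genes, and without its sign it was 0.103 for the members and 0.142 for all genes. The 95% interval lay within 0.5 on the log2 scale in either direction for 35 of the 36 members, all but CYP51A1. The comparisons of BRSK1 and of BRSK2 use the same 4 control libraries. With hcRED as the only control, 2 members (INSIG1 and MSMO1, both higher) and 133 of all genes (0.785%) were called with BRSK1.

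In the direct comparison of the kinases, FASN was higher and MSMO1 lower with BRSK2 than with BRSK1, 2 of 36 members (5.56%) against 0.348% of all tested genes (0.23% higher, 0.118% lower). Between the 2 control groups, hcRED and Mock, 0 members passed edgeR's test and 5 of all tested genes did (0.0295%; 0.0059% higher, 0.0236% lower), while 9 members had an unadjusted p under 0.05 (25%, against 8.95% of all genes). DESeq2 and limma-voom also called 0 members there, with 52 and 2 genes in all. The authors' deposited table for BRSK1 lists 879 genes, among them MSMO1 (log2 fold change 0.36, adjusted p 0.00765), MID1IP1 (0.35, 0.0114) and IDI1 (0.27, 0.0224). The authors' deposited table for BRSK2 lists 723 genes, among them MID1IP1 (0.43, 0.00911) and SREBF2 (0.22, 0.033), and FASN is in neither table. The authors' lists end at an adjusted p of 0.0496 for BRSK1 and 0.0498 for BRSK2. Their headers do not name the reference group, so the contrasts may not be the same as those used here.

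**Figure D2:**
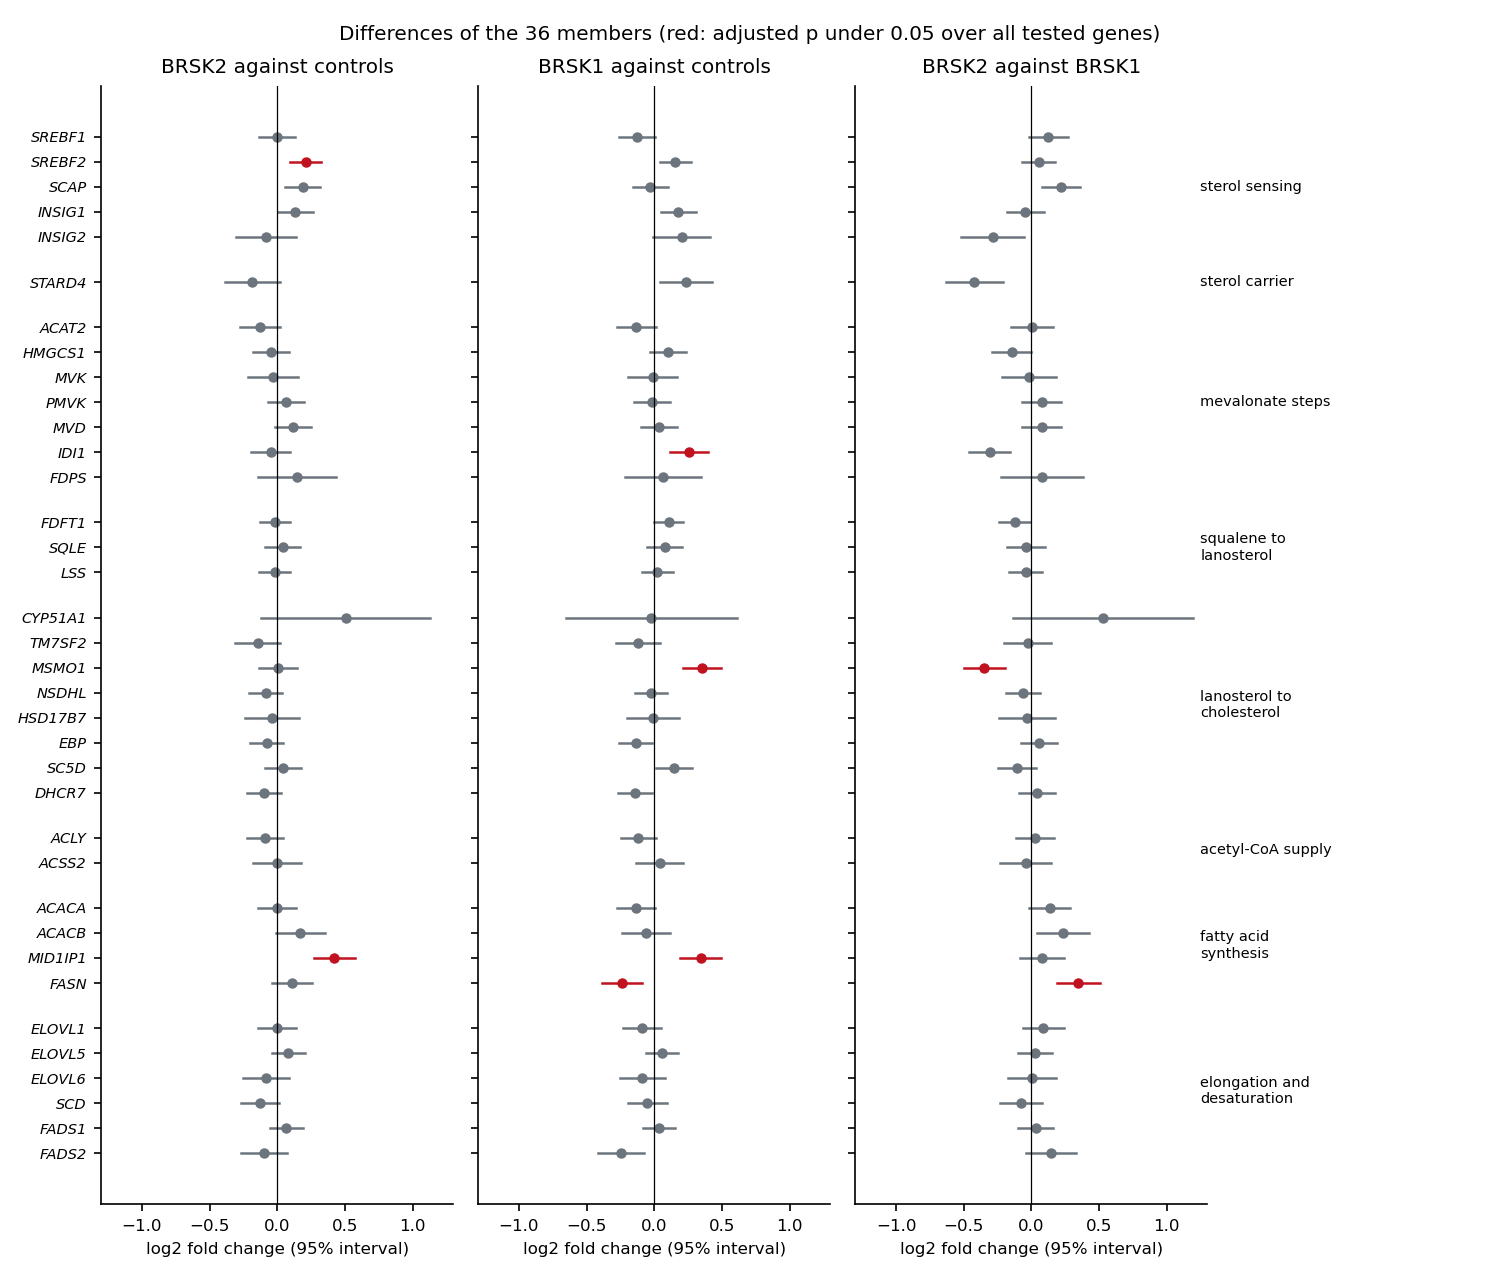
Log2 fold change of each of the 36 members with its 95% interval, for BRSK2 against controls, BRSK1 against controls and BRSK2 against BRSK1, ordered by role; red marks an adjusted p under 0.05 over all tested genes. Most intervals cross or lie close to 0, and 2, 4 and 2 members are red in the 3 panels.

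Among the 5 genes of sterol sensing, 1 passed with BRSK2 and 0 with BRSK1. SREBF2 (ENSG00000198911, chr22:41833079-41907308 on hg38) measured 233.2, 212.3 and 219.6 CPM in the BRSK2 libraries and 217.2, 202.7 and 220.5 CPM in the BRSK1 libraries. In the controls it measured 191.4 and 198.0 CPM (Mock) and 191.0 and 186.3 CPM (hcRED). Every kinase library lay above every control library. The log2 fold change with BRSK2 was 0.21 ± 0.06 (SE; adjusted p = 0.0231), and with BRSK1 it was 0.16 ± 0.06 (adjusted p = 0.0972), which did not pass. The kinases differed by 0.05 ± 0.06 (adjusted p = 0.771), with a 95% interval from -0.07 to 0.18. The SREBF2 call with BRSK2 was made in 15 of 22 alternative settings, at adjusted p between 0.00483 and 0.237. It was lost with library totals in place of TMM factors (log2 fold change 0.11, adjusted p = 0.237), with hcRED or Mock as the only control (0.0542 and 0.101), and without BRSK2 replicate 3, Mock replicate 2, hcRED replicate 1 or hcRED replicate 3 (0.096, 0.0609, 0.0662 and 0.0842).

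The other sterol sensors did not pass. SCAP, which escorts SREBP to the Golgi, measured 284.5, 245.3 and 251.2 CPM with BRSK2, 242.6, 209.4 and 219.1 CPM with BRSK1, and 223.2 to 234.3 CPM in the 4 controls. All 3 BRSK2 libraries lay above the other 7, and the log2 difference was 0.19 ± 0.06 against the controls (adjusted p = 0.0647) and 0.22 ± 0.07 against BRSK1 (adjusted p = 0.16). INSIG1, which retains SCAP when sterols are plentiful, measured 279.6, 263.5 and 265.0 CPM with BRSK2, 294.9, 260.2 and 278.4 CPM with BRSK1, 270.0 and 276.2 CPM in Mock and 237.7 and 203.3 CPM in hcRED. The kinase libraries overlapped Mock and lay above hcRED. The log2 difference was 0.13 ± 0.06 with BRSK2 (adjusted p = 0.192), 0.18 ± 0.06 with BRSK1 (adjusted p = 0.0824) and -0.31 ± 0.08 for hcRED against Mock (adjusted p = 0.192), the last being the lowest value of any member between the controls. SREBF1, the gene of SREBP1, differed by 0.00 ± 0.06 with BRSK2 (95% interval -0.13 to 0.13) and by -0.13 ± 0.06 with BRSK1 (95% interval -0.26 to 0.01). INSIG2, the less abundant INSIG gene, differed by -0.08 ± 0.11 with BRSK2 and by 0.20 ± 0.10 with BRSK1 (adjusted p = 0.698 and 0.252).

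STARD4, which moves cholesterol between membranes and is itself an SREBP2 target, did not pass in any of the 4 comparisons. It measured 17.9, 14.4 and 16.6 CPM with BRSK2, 22.3, 21.3 and 21.6 CPM with BRSK1, 18.1 and 20.4 CPM in Mock and 17.3 and 18.1 CPM in hcRED. The BRSK1 libraries were the 3 highest, and the BRSK2 libraries overlapped the controls. Its log2 difference between BRSK2 and BRSK1 was -0.42 ± 0.10 (adjusted p = 0.0805; 95% interval -0.63 to -0.21), and it passed in 4 of 19 alternative settings.

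Of the 7 genes of the mevalonate route, 1 passed with BRSK1, and 0 passed with BRSK2 or between the kinases. IDI1 (ENSG00000067064, chr10:1039908-1049170) measured 70.7, 70.3 and 72.6 CPM with BRSK1, 52.2, 59.1 and 61.3 CPM with BRSK2, 62.0 and 57.1 CPM in Mock and 61.9 and 57.0 CPM in hcRED. The 3 BRSK1 libraries lay above the other 7, which overlapped one another. The log2 fold change with BRSK1 was 0.26 ± 0.07 (adjusted p = 0.0249), with BRSK2 -0.05 ± 0.07 (adjusted p = 0.733), and for BRSK2 against BRSK1 -0.31 ± 0.07 (adjusted p = 0.0706), so a difference between the kinases did not pass. The IDI1 call was made in 14 of 22 alternative settings, at adjusted p from 0.00764 to 0.134. It was lost with hcRED or Mock as the only control (0.134 and 0.0571), without any 1 of the 3 BRSK1 replicates (0.054, 0.0621 and 0.128), and without Mock replicate 3, hcRED replicate 1 or hcRED replicate 3 (0.0844, 0.0551 and 0.095).

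The enzymes before and after IDI1 did not pass. HMGCS1, which makes HMG-CoA, ranged from 78.4 to 96.9 CPM over the 10 libraries and differed by -0.05 ± 0.06 with BRSK2 and 0.10 ± 0.06 with BRSK1 (adjusted p = 0.733 and 0.381). The kinases MVK and PMVK and the decarboxylase MVD, the 3 steps that turn mevalonate into isopentenyl diphosphate, differed by -0.03 to 0.11 on the log2 scale in either kinase comparison, with adjusted p between 0.3 and 0.96. ACAT2, the cytosolic thiolase at the head of the route, differed by -0.13 ± 0.07 with either kinase (adjusted p = 0.284 and 0.269). FDPS, the farnesyl diphosphate synthase, differed by 0.15 ± 0.13 with BRSK2 and 0.06 ± 0.13 with BRSK1, with more spread than the rest of the route.

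Of the 3 genes that carry farnesyl diphosphate to lanosterol, 0 passed with either kinase. FDFT1, the squalene synthase, measured 147.7, 144.3 and 145.1 CPM with BRSK1, 129.4, 134.8 and 137.0 CPM with BRSK2 and 133.4 to 137.7 CPM in the controls. The BRSK1 libraries were again the 3 highest, at a log2 difference of 0.11 ± 0.05 that did not pass (adjusted p = 0.25). SQLE, the squalene epoxidase, differed by 0.04 ± 0.06 with BRSK2 and 0.08 ± 0.06 with BRSK1, and LSS, the lanosterol synthase, by -0.02 ± 0.06 and 0.02 ± 0.06 (adjusted p from 0.506 to 0.895).

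Of the 8 genes that turn lanosterol into cholesterol, 1 passed. MSMO1 (ENSG00000052802, chr4:165327623-165343160) measured 48.7, 47.6 and 45.2 CPM with BRSK1, 36.04, 37.4 and 37.8 CPM with BRSK2, 36.2 and 37.3 CPM in Mock and 36.9 and 37.3 CPM in hcRED. The 3 BRSK1 libraries stood above all others, and the other 7 lay between 36.04 and 37.8 CPM. The log2 fold change with BRSK1 was 0.35 ± 0.07 (adjusted p = 0.0039), and this call was made in all 22 alternative settings, at adjusted p of at most 0.0434. With BRSK2 it was 0.01 ± 0.07 (adjusted p = 0.973; 95% interval -0.14 to 0.15). MSMO1 was lower with BRSK2 than with BRSK1 by a log2 fold change of -0.35 ± 0.07 (adjusted p = 0.038), a call made in 10 of 20 alternative settings at adjusted p from 0.00325 to 0.155. That call was lost without any 1 of the 6 kinase replicates (adjusted p from 0.0634 to 0.155) and without hcRED replicate 1 or 3. The same call was lost without robust estimation (0.0561) and with the term for library sets described below. Over all 20 settings the log2 fold change lay between -0.41 and -0.32.

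The remaining ring enzymes did not pass in either kinase comparison. SC5D, which places the ring's Δ5 double bond, differed by 0.15 ± 0.06 with BRSK1 (adjusted p = 0.171), EBP, the sterol isomerase, by -0.14 ± 0.06 (adjusted p = 0.174) and DHCR7 by -0.14 ± 0.06 (adjusted p = 0.157). With BRSK2 these 3 differed by 0.04, -0.08 and -0.10 on the log2 scale (adjusted p = 0.764, 0.467 and 0.339). NSDHL, the sterol dehydrogenase that works with MSMO1, ranged only from 72.1 to 80.5 CPM and differed by -0.09 ± 0.06 with BRSK2 and -0.02 ± 0.06 with BRSK1. HSD17B7, the ketoreductase of the same step, and the reductase TM7SF2 differed by -0.04 and -0.15 with BRSK2 and by -0.01 and -0.12 with BRSK1, none of them past the threshold (adjusted p from 0.278 to 0.974).

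Among the 4 genes of fatty acid synthesis itself, MID1IP1 rose with both kinases. MID1IP1 (ENSG00000165175, chrX:38801432-38806537) measured 105.6, 128.4 and 126.8 CPM with BRSK2, 112.7, 110.1 and 119.0 CPM with BRSK1, 95.9 and 78.5 CPM in Mock and 89.1 and 95.6 CPM in hcRED. All 6 kinase libraries lay above the 4 controls. The log2 fold change of MID1IP1 was 0.42 ± 0.07 for BRSK2 (adjusted p = 0.00106). For BRSK1 it was 0.34 ± 0.07 (adjusted p = 0.00833), and the kinases differed by 0.08 ± 0.08 (adjusted p = 0.747; 95% interval -0.09 to 0.24). The BRSK2 call was made in all 22 alternative settings, at adjusted p of at most 0.0193. The BRSK1 call was made in 19 of 22, and was lost with hcRED as the only control (log2 fold change 0.30, adjusted p = 0.113), without BRSK1 replicate 3 (0.0717) and without hcRED replicate 1 (0.0518).

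FASN (ENSG00000169710, chr17:82078333-82098332) measured 1099.2, 930.6 and 1046.1 CPM with BRSK1, 1455.4, 1229.8 and 1232.6 CPM with BRSK2, 1295.6 and 1398.2 CPM in Mock and 1124.2 and 1055.1 CPM in hcRED. The BRSK1 libraries overlapped hcRED and lay below Mock, and the BRSK2 libraries lay above BRSK1 and hcRED and overlapped Mock. The log2 fold change with BRSK1 was -0.24 ± 0.07 (adjusted p = 0.045), and it was -0.09 (adjusted p = 0.697) with hcRED as the only control and -0.39 (adjusted p = 0.00866) with Mock as the only control. Between hcRED and Mock the FASN difference was -0.31 ± 0.09 (adjusted p = 0.289). The FASN call with BRSK1 was made in 13 of 22 alternative settings, at adjusted p from 0.00199 to 0.697. Beside hcRED as the only control, the FASN call was lost without BRSK1 replicate 2 or 3 (adjusted p = 0.229 and 0.137), BRSK2 replicate 2 or 3 (0.0519 and 0.0566), Mock replicate 3 (0.128) or hcRED replicate 1 or 3 (0.163 and 0.0715), and without robust estimation (0.054). With BRSK2 the difference from the controls was 0.11 ± 0.07 (adjusted p = 0.391).

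Between the kinases FASN was higher with BRSK2 by a log2 fold change of 0.35 ± 0.08 (adjusted p = 0.0439), a comparison that uses no control library except for the shared estimate of spread. That call was made in 9 of 20 alternative settings, at log2 fold changes of 0.27 to 0.41 and adjusted p from 5.7e-05 to 0.191. For FASN it was lost without any 1 of the 6 kinase replicates (adjusted p from 0.0677 to 0.191) and without hcRED replicate 1 or 3. The same call was lost with library totals (0.0822), without robust estimation (0.0714) and with the term for library sets described below. The carboxylases did not pass: ACACA, the cytosolic form, differed by 0.00 ± 0.07 with BRSK2 and -0.14 ± 0.07 with BRSK1 (adjusted p = 0.997 and 0.244), and by -0.30 ± 0.09 between hcRED and Mock (adjusted p = 0.262). ACACB, whose product inhibits fatty acid import into mitochondria, differed by 0.17 ± 0.09 with BRSK2 and -0.06 ± 0.09 with BRSK1 (adjusted p = 0.24 and 0.729).

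**Figure D3:**
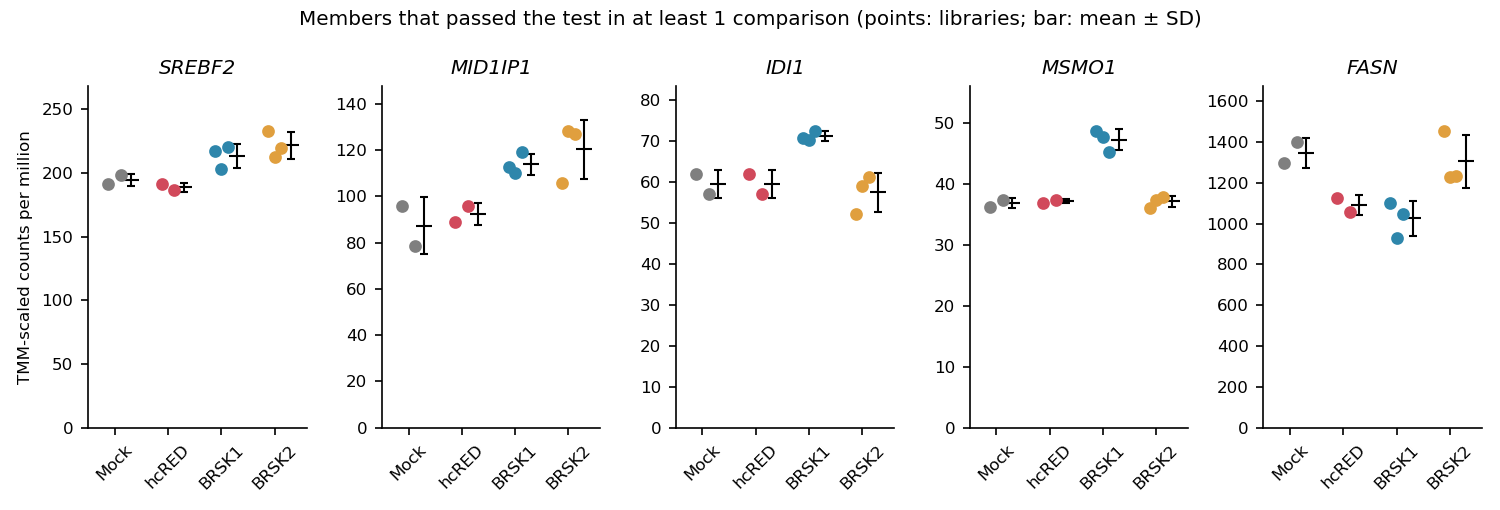
TMM-scaled CPM of the 5 members that passed the test in at least 1 comparison, by group; points are libraries, and the bar beside them is the mean with its SD (n = 2 for Mock and hcRED, n = 3 for each kinase), on axes from 0. IDI1 and MSMO1 lie highest in the 3 BRSK1 libraries, SREBF2 and MID1IP1 lie higher in the libraries of both kinases than in the controls, and for FASN the Mock and hcRED libraries lie apart from each other.

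The genes that supply acetyl-CoA and that lengthen or desaturate fatty acids gave no call, with 0 of 2 and 0 of 6 members passing in each comparison. ACLY differed by -0.09 ± 0.06 with BRSK2 and -0.12 ± 0.06 with BRSK1 (adjusted p = 0.426 and 0.286). ACSS2, which makes acetyl-CoA from acetate, differed by 0.00 ± 0.09 and 0.04 ± 0.08. SCD measured 1046.0, 888.3 and 883.6 CPM with BRSK2, 1063.8, 960.9 and 945.1 CPM with BRSK1, 1071.6 and 1129.7 CPM in Mock and 1002.5 and 910.5 CPM in hcRED. The SCD groups overlapped, with log2 differences of -0.13 ± 0.07 with BRSK2 and -0.05 ± 0.07 with BRSK1 (adjusted p = 0.278 and 0.714). FADS2, the first desaturase for polyunsaturated fatty acids, had the lowest value of any member with BRSK1, -0.24 ± 0.08 (adjusted p = 0.0803), with libraries at 98.6, 92.3 and 91.1 CPM against 92.9 to 121.5 CPM in the controls. FADS1, the desaturase that follows FADS2, and the elongases ELOVL1, ELOVL5 and ELOVL6 differed by -0.09 to 0.08 in either kinase comparison (adjusted p from 0.416 to 0.997).

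Libraries of both sides were fully apart for 8 members with BRSK2 (22.2%, against 17.3% of all tested genes) and 7 with BRSK1 (19.4%, against 18.4%). For the kinases against each other, they were apart for 12 members (33.3%, against 17.7%). Between hcRED and Mock, with 2 libraries each, they were apart for 19 of the 36 members, or 52.8%, against 40.3% of all genes. At these control groups, 23 members were lower and 13 higher in hcRED, with a median log2 difference of -0.035 against 0.0003 over all genes. With library totals in place of TMM factors, 19 of the 36 members were higher in hcRED, with a median of 0.02 against 0.05 over all genes. ACLY, SQLE, SCD, ACACA, FASN and INSIG1 were among those lower in hcRED, by 0.20 to 0.31 on the log2 scale, and 0 of them passed (adjusted p from 0.192 to 0.518).

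Counts of 183 processed pseudogenes, which are intron-less copies of genes, split the libraries into 2 sets that cross the labels, with 50.8% of their variance on the first component. The first set (A) holds BRSK1 replicate 2, all 3 BRSK2 replicates, Mock replicate 2 and hcRED replicate 1. The second (B) holds BRSK1 replicates 1 and 3, Mock replicate 3 and hcRED replicate 3, so BRSK2 has no library there. What the sets are is not given in the labels. Of all tested genes 372 (2.2%) had their libraries fully apart between the sets, and 2 members were among them, CYP51A1 and FDPS.

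CYP51A1, which removes the first methyl group of lanosterol, measured 10.0 to 12.3 CPM in the 6 libraries of set A and 5.6 to 7.2 CPM in the 4 of set B. It had the widest spread of the members and differed by 0.51 ± 0.28 with BRSK2 (adjusted p = 0.319; 95% interval -0.12 to 1.13), and it differed by -0.02 ± 0.28 with BRSK1. With the set as a term in the fit the BRSK2 value of CYP51A1 was 0.16 (adjusted p = 0.558), and within set A the log2 ratio of group means to the controls was 0.19 for BRSK2 and 0.18 for BRSK1. FDPS measured 49.7 to 59.1 CPM in set A and 39.8 to 44.0 CPM in set B. The BRSK2 difference of FDPS was -0.04 with the set as a term (adjusted p = 0.812), against 0.15 without it (adjusted p = 0.562). By name, 3 pseudogenes of CYP51A1 and 8 of FDPS are in the count tables, none with more than 6 counts in a library, and how reads shared with such copies were assigned is not given in the sources used here.

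All 6 calls against the controls were also made with the set as a term, which was added after the data were seen. Within set A, where the controls are Mock replicate 2 and hcRED replicate 1, the log2 ratio of group means with BRSK2 was 0.38 for MID1IP1 and 0.21 for SREBF2. The BRSK1 ratios for MSMO1 were 0.38 in set A and 0.33 in set B, and those for MID1IP1 were 0.25 and 0.41. IDI1 gave 0.18 and 0.33, and FASN gave -0.38 and -0.19, each in the same direction in both sets. Set A has 1 BRSK1 library, and each set has 1 Mock and 1 hcRED library. For FASN in set A, the BRSK1 library (930.6 CPM) lay below both controls. In set B, FASN measured 1099.2 and 1046.1 CPM with BRSK1. These values lay on either side of hcRED (1055.1 CPM) and below Mock (1398.2 CPM). The direct comparison of the kinases can be made within set A alone, where it has 1 BRSK1 library, and gave a log2 ratio of -0.36 for MSMO1 and 0.49 for FASN. With the set as a term, neither passed between the kinases (MSMO1 -0.34, adjusted p = 0.143; FASN 0.41, adjusted p = 0.0781).

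**Figure D4:**
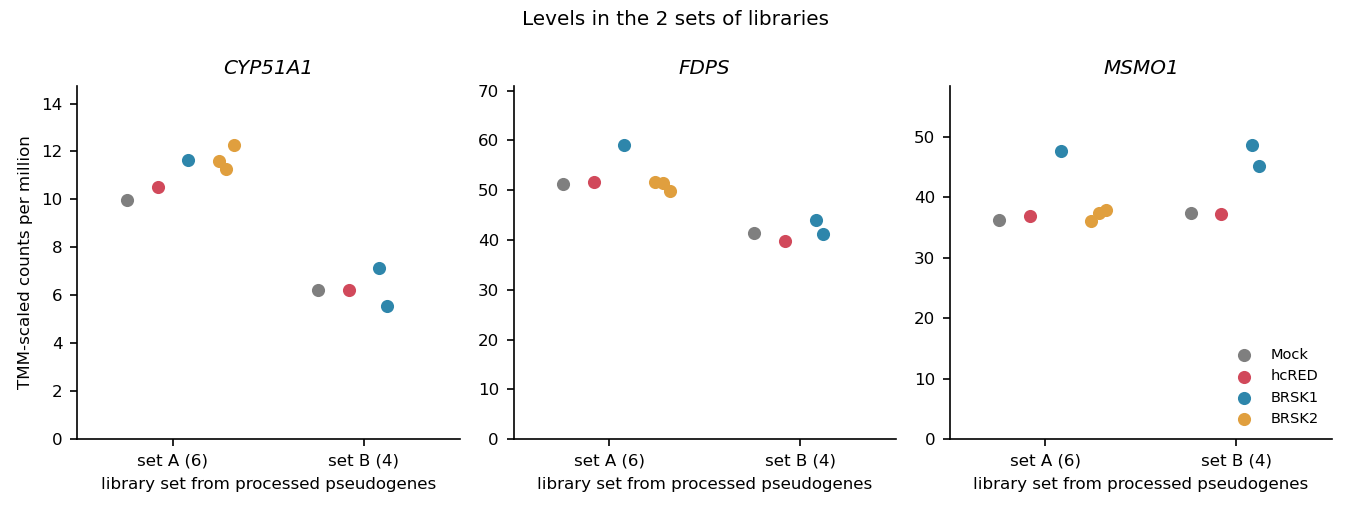
TMM-scaled CPM of CYP51A1, FDPS and MSMO1 in the 2 sets of libraries that processed pseudogene counts separate (6 and 4 libraries); each point is a library, coloured by group, on axes from 0. CYP51A1 and FDPS split by set within the groups, while MSMO1 is high in the BRSK1 libraries of either set.

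Several members overlap another expressed gene, and whether counting used strand is not given in the sources used here. SREBF1 overlaps RAI1, ACAT2 overlaps TCP1 and SOD2, MVK overlaps MMAB and ACSS2 overlaps GGT7, all on the opposite strand and all with more counts than the member on average. TM7SF2 overlaps VPS51 on the same strand, and FADS2 overlaps FEN1 on the same strand and FADS1 on the opposite one. Of the 5 members that passed, SREBF2 overlaps the antisense RNA RP5-821D11.7, with a mean of 107.9 counts against 4215 for SREBF2. IDI1 overlaps the antisense RNA IDI2-AS1, with a mean of 2.0 counts against 1281 for IDI1. MID1IP1 overlaps MID1IP1-AS1, with a mean of 38.2 counts against 2160 for MID1IP1.

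The genes around these routes were followed through lists of other steps. Of all tested genes, 4.77% rose and 3.05% fell with BRSK2, and 3.77% rose and 2.66% fell with BRSK1. In SREBP processing and turnover, 0 of 18 genes rose and 1 fell with BRSK2, and 1 rose and 2 fell with BRSK1. C12orf49, which is needed for SREBP cleavage through the site-1 protease, fell by 0.23 on the log2 scale with BRSK2 (adjusted p = 0.0371) and by 0.24 with BRSK1 (adjusted p = 0.0376), from a mean of 92.4 CPM in the controls to 78.5 and 78.3 CPM. UFD1, listed under its older symbol UFD1L and a cofactor for extracting ubiquitinated proteins from the endoplasmic reticulum, fell by 0.23 with BRSK1 (adjusted p = 0.035). ERLIN2, an endoplasmic reticulum membrane protein that acts in the degradation of sterol-regulated proteins, rose by 0.30 with BRSK1 (adjusted p = 0.00568).

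In sterol uptake, esterification and transfer, 2 of 17 tested genes rose with each kinase and 0 fell. GRAMD1A, which carries cholesterol from the plasma membrane to the endoplasmic reticulum, had a mean of 73.1 CPM in the controls, 92.2 CPM with BRSK1 and 118.7 CPM with BRSK2. It rose by 0.70 ± 0.07 with BRSK2 (adjusted p = 5.06e-07) and by 0.33 ± 0.07 with BRSK1 (adjusted p = 0.00616), with libraries fully apart in each, and was higher with BRSK2 than with BRSK1 by 0.36 ± 0.07 (adjusted p = 0.0328). The lysosomal cholesterol exporter NPC1 rose by 0.24 with BRSK2 (adjusted p = 0.0207), and GRAMD1C, a relative of GRAMD1A at a mean of 4.11 CPM, rose by 0.61 with BRSK1 (adjusted p = 0.0392).

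In the isoprenoid branch, PDSS2, a subunit of the enzyme that makes the side chain of coenzyme Q, fell by 0.35 with BRSK2 (adjusted p = 0.0313). Among 16 tested genes of other fatty acid elongation, desaturation and NADPH or citrate supply, 4 fell with BRSK2, against 3.05% of all genes. Over all the lists together, 7 of 117 tested genes fell with BRSK2. SCD5, a second stearoyl-CoA desaturase, fell by 0.40 and ELOVL4, an elongase of very long chains, by 0.31. ME1, a cytosolic source of NADPH, fell by 0.27 and TECR, the last enzyme of elongation, by 0.23 (adjusted p of the 4 from 0.0265 to 0.0474). With BRSK1, TECR fell by 0.28 (adjusted p = 0.0194) and ELOVL7, another elongase, rose by 0.46 (adjusted p = 0.0206).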

How the data were processed

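The deposited values are raw read counts by gene, in 1 table per kinase that also holds the 4 control libraries; the 2 tables were joined by gene ID. The submitters' processing notes name STAR, edgeR, limma and hg38, without versions. The counting tool, whether it used strand, and the gene annotation used are steps not given in the sources used here. Gene length (in bases) and positions are those deposited by the authors, and the authors' deposited tables of results give log2 fold changes with a p-value and an adjusted p-value, whose other columns and the tables of expression by sample were not used.

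All 10 libraries entered 1 fit of 4 group means with edgeR 4.0.16 in R 4.3.3 (TMM scaling; filterByExpr at its minimum count of 10 and minimum total of 15; glmQLFit and glmQLFTest with robust estimation). The control side of each kinase contrast is the average of the Mock and hcRED groups, and Benjamini-Hochberg adjustment ran over all 16936 tested genes with a threshold of 0.05. Log2 fold changes are given ± SE. CPM values are TMM-scaled, and levels between genes were compared per kilobase of the deposited gene length.

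Alternatives were RLE factors, library totals, scaling without the kinase genes, no filter, a filter of 1 CPM in 3 libraries, DESeq2 1.42.0, limma-voom (limma 3.58.1), no robust estimation, a replicate block, each library left out, and hcRED or Mock alone as control. A term for 2 sets of libraries was added after the data were seen. The sets came from average-linkage clustering of the libraries on log2 CPM of processed pseudogenes with at least 10 counts in each library. Where leaving out a library left 1 in a group, its spread was taken to equal that of the other groups.

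Every member is accounted for, those called are given in every library, and at most 4 called genes of each other list are named, by smallest p. Some results on genes of those lists are not reported here. The members and lists were chosen with earlier results of these data known. Promoter windows are from RefSeq (GRCh38.p14), with SQLE, FDFT1, ACAT2 and FASN unmatched. The fit was tested on simulated data, with changes in 50 genes of each size for BRSK2 against the controls. It called 48% of changes of 0.3 on the log2 scale, 80% of 0.5 and 100% of 1. A change of 0.3 was thus often missed there. The simulation gave all genes 1 spread and changed far fewer genes than the 1325 called with BRSK2 in the data. Its rates may therefore differ from those that hold for the members. A member that did not pass is not shown to be unchanged. Python 3.11.15 and matplotlib 3.10.9 drew the figures.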

Additional observations from a re-analysis of the deposited data

How the results depend on the processing

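The number of members called depended on the processing. With BRSK2 against the controls (2 members), library totals gave 9 (1 higher, 8 lower). The median log2 fold change of all genes was -0.10 with library totals and 0.0023 with TMM factors. BRSK2 itself made up 72750 to 108888 CPM in the BRSK2 libraries, a share that library totals include. No filter gave 4, Mock alone gave 1, and leaving out 1 library gave 1 to 3. With BRSK1 (4 members), hcRED alone gave 2 and leaving out 1 library gave 1 to 7. Between the kinases (2 members), no filter gave 4, no robust estimation 0, the term for the pseudogene sets 0, and leaving out 1 library 0 to 2. Between hcRED and Mock (0 members), no filter gave 2 (FASN and INSIG1, lower in hcRED), and leaving out 1 library gave 0. Why the numbers of calls moved with these settings was not tested. In the remaining settings without a block each count stayed within 1.5 times its value, and no called member changed sign. Members called neither as reported nor in any alternative numbered 23 with BRSK2, 27 with BRSK1, 31 between the kinases and 30 between the controls.

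With a replicate block 3 members were called with BRSK2, 8 with BRSK1 (5 higher, 3 lower), 5 between the kinases (2 higher, 3 lower) and 6 lower in hcRED than in Mock (ACACA, ACLY, FASN, INSIG1, SCD and SQLE). The replicate numbers do not clearly pair the libraries. Across groups, the deviations of same-numbered libraries from their group means correlated between -0.05 and 0.16, not all over 0.1. Those of differently numbered libraries correlated between -0.14 and 0.10. The 2 ranges are not independent, because in a group of 2 libraries the 2 deviations mirror each other. BRSK1 replicate 2, for example, correlated at 0.14 with Mock replicate 2 and at -0.14 with Mock replicate 3. Most of the same-numbered correlations were positive. A pairing was thus neither shown nor excluded. The lowest count of a member in a library was 126 (CYP51A1), and its SE with BRSK2, 0.28, was the largest of the members. FDPS was next at 0.13 with a lowest count of 782, above INSIG2 at 0.11 with a lowest count of 192. What limits the precision of each member was not tested.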

Other observations

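Synthesis of glycerolipids, which takes up the fatty acids made, was followed in 19 genes, all tested, and 0 passed with BRSK2, with BRSK1, between the kinases or between hcRED and Mock, with median log2 fold changes of -0.01, -0.03, -0.02 and -0.02. Of 20 genes of fatty acid oxidation, ECHS1, the enoyl-CoA hydratase, fell by 0.20 on the log2 scale with BRSK2 (adjusted p = 0.0421), from a mean of 181 CPM in the controls to 157 CPM. ACADVL, the dehydrogenase of very long chains, rose by 0.38 with BRSK1 (adjusted p = 0.0115), from a mean of 94.4 CPM to 122 CPM. The other 19 genes did not pass in each case. Over the 117 tested genes of all 7 lists around the synthesis routes, 4 were higher and 7 lower with BRSK2 (9.4%), and 6 higher and 3 lower with BRSK1 (7.69%), close to the shares of 7.82% and 6.43% among all genes, and 1 passed between the kinases (GRAMD1A).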
